A study of Mus musculus with 27 samples.

Results

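The DNA replication machinery was described through 45 genes in TAMH cells, a hepatocyte line from mice that carry a transgene for transforming growth factor alpha. The 45 genes were listed by function, and all 45 were measured among 19938 genes. Each was read from the probe set annotated to its symbol alone, and for Pcna and Tk1, with 2 such probe sets each, the one with the higher mean over the 27 arrays was used. Confluent cultures in serum-free medium with dexamethasone, nicotinamide, insulin, transferrin and selenium were dosed for 2, 6 or 24 h with acetaminophen (APAP) at 2 mM, with AMAP at 2 mM, or with medium alone as the control. Each of the 9 groups of treatment and time held 3 arrays, which bear the numbers 30, 31 and 32. AMAP is a regioisomer of APAP: its ring hydroxyl group is in the meta position, where that of APAP is in the para position. The transgene, the medium and confluence at dosing were common to all 9 groups, so the controls carry them too, and a single line stands for hepatocytes here. The labels do not say whether the arrays of a group came from separate cultures, and p-values therefore measure only the spread between these samples, which may be technical.

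Replication starts at origins, which the origin recognition complex (Orc1 to Orc6) marks and on which Cdc6 and Cdt1 load the ring-shaped Mcm2 to Mcm7 helicase in the G1 phase of the cell cycle. In S phase Mcm10, Cdc45 and the GINS complex turn the helicase on, primase and polymerase alpha lay down primers, and polymerases delta and epsilon copy the strands while held by the sliding clamp Pcna, which replication factor C loads. Many of these genes are known targets of E2F transcription factors, which are released as cells pass from G1 into S phase, and hepatocytes of the adult liver are mostly quiescent and re-enter the cycle when tissue is lost. In RNA from whole cultures, fewer cells in S phase and less RNA of these genes per cell cannot be told apart.

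All 45 genes lay above the median gene of the arrays, at a median percentile of 86.2 of the mean signal. Array medians over all genes lay between 7.25 and 7.36 on the log2 scale, and Pearson's r between arrays of 1 group, taken across genes that are themselves no replicates, was 0.992 to 0.997. In the controls, 9 of 9 hepatocyte markers matched lay above the median gene, against 1 of 7 macrophage and leukocyte markers, 0 of 5 endothelial markers, 4 of 8 fibroblast and stellate cell markers (with Vim and Dcn bright) and 3 of 4 biliary markers. At 24 h the arrays of number 31 stood apart. The APAP array 31 was the lowest of its group for 41 of the 45 replication genes and the AMAP array 31 for 40 of the 45, with median deviations from the group mean of -0.20 and -0.16 on the log2 scale, whereas the control array 31 was the highest for 29. The calls at 24 h, against control and between the compounds, are therefore also given with number 31 left out at all times. Smaller departures were seen at other times. At 2 h the AMAP array 31 was the highest of its group for 35 of the 45 genes and array 32 the lowest for 32 (median deviations 0.07 and -0.06). At 6 h the APAP array 31 was the lowest for 29 (median deviation -0.07).

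**Figure D1:**
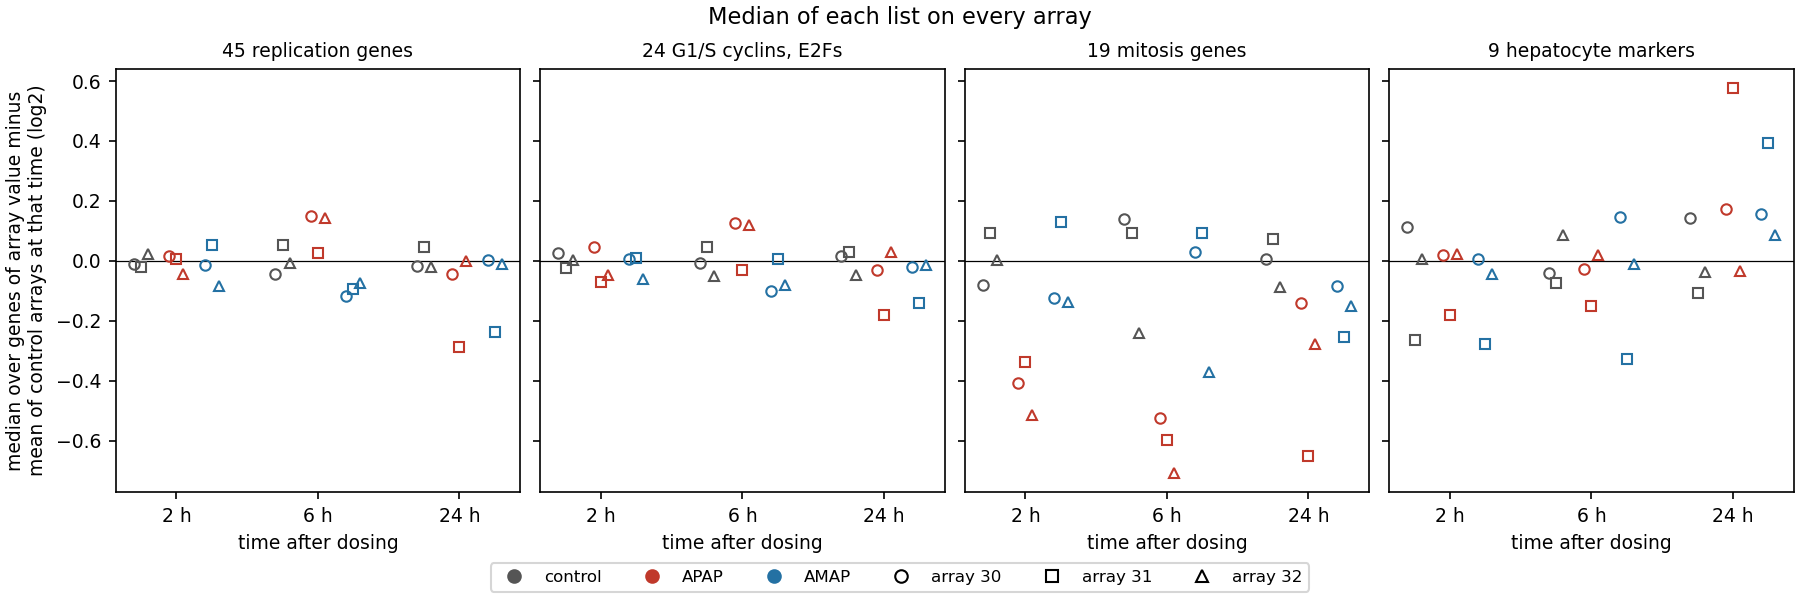
Median over the genes of a list of each array's log2 value minus the mean of the 3 control arrays at the same time, for the 45 replication genes, 24 G1/S genes, 19 mitosis genes and 9 hepatocyte markers, with colours for treatment and symbols for the array number. At 24 h the APAP and AMAP arrays of number 31 (squares) lie below the other arrays for the replication genes and above them for the hepatocyte markers.

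The first question was what 24 h of APAP did to these genes. Of the 45, 5 fell and 0 rose against control, where limma called 9.33% of all genes in either direction, 5.97% as lower and 3.36% as higher. Without number 31, 2 of the 45 fell and 0 rose, where limma called 282 of all 19938 genes as lower and 226 as higher. The 5 called with all arrays were 2 subunits of polymerase delta (Pold2 and Pold1), the GINS subunit Gins1, the helicase subunit Mcm6 and the thymidine kinase Tk1. Tk1 makes thymidine monophosphate by salvage. The difference from control ranged from -0.73 to 0.26 over the 45 genes, with a median of -0.10 (35 below 0), beside 0.02 over all genes. The share called, 5 of 45, is near the share of all genes called.

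Pold2, a regulatory subunit that joins the catalytic part of polymerase delta to its other subunits, had the largest difference. The control arrays 30, 31 and 32 read 9.92, 9.82 and 9.91 on the log2 scale, and the APAP arrays 9.18, 9.03 and 9.25. All 3 APAP arrays lay well under the lowest control, and the spread within each group was small beside the gap. The difference was -0.73 ± 0.09 (standard error of the difference, as after every ± of a difference here; n = 3 against 3), a signal 1.66-fold lower, with limma's Benjamini-Hochberg adjusted p = 1.1e-05. It was called under each of the 18 alternatives tried, with differences between -0.78 and -0.67.

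Gins1 is a subunit of the GINS complex that joins Cdc45 and the Mcm helicase. It read 10.00, 9.89 and 10.05 in the controls and 9.53, 8.83 and 9.60 under APAP. The groups did not overlap, and array 31 lay far below the other APAP arrays. Gins1 fell by 0.66 ± 0.13 (limma adjusted p = 0.0021). The difference was -0.46 with number 31 left out (adjusted p = 0.036), and the call was lost (adjusted p = 0.059) with the 6 arrays of this comparison fitted alone.

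Tk1 read 10.33, 10.37 and 10.26 in the controls and 10.01, 9.49 and 9.85 under APAP, again without overlap and with array 31 lowest. It fell by 0.54 ± 0.11 (limma adjusted p = 0.0019), and the difference was -0.60 in the other probe set annotated to Tk1; whether each of the 2 measures Tk1 alone was not tested. Without the arrays of number 31 the difference was -0.37 and not called (adjusted p = 0.11).

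Mcm6, a subunit of the replicative helicase, read 11.29, 11.39 and 11.21 in the controls and 11.09, 10.69 and 10.97 under APAP. The highest APAP array lay just under the lowest control. Mcm6 fell by 0.38 ± 0.09 (limma adjusted p = 0.0069). It was not called without number 31 (-0.22, adjusted p = 0.24), without the APAP array 31 alone (-0.26, adjusted p = 0.075) or with the 6 arrays fitted alone (adjusted p = 0.080).

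Pold1 is the catalytic subunit of polymerase delta. Its controls read 9.30, 9.31 and 9.27 and its APAP arrays 9.16, 8.83 and 8.93. The controls were tight, and each APAP array lay below them. Pold1 fell by 0.32 ± 0.09 (limma adjusted p = 0.021), the weakest of the 5 calls. It was lost without number 31 (-0.24, adjusted p = 0.32), number 32 (-0.31, adjusted p = 0.12), the APAP array 31 (-0.25, adjusted p = 0.14) or 32 (-0.30, adjusted p = 0.061), the control array 30 (adjusted p = 0.062) or 31 (adjusted p = 0.072), and with the 6 arrays fitted alone (adjusted p = 0.089).

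**Figure D2:**
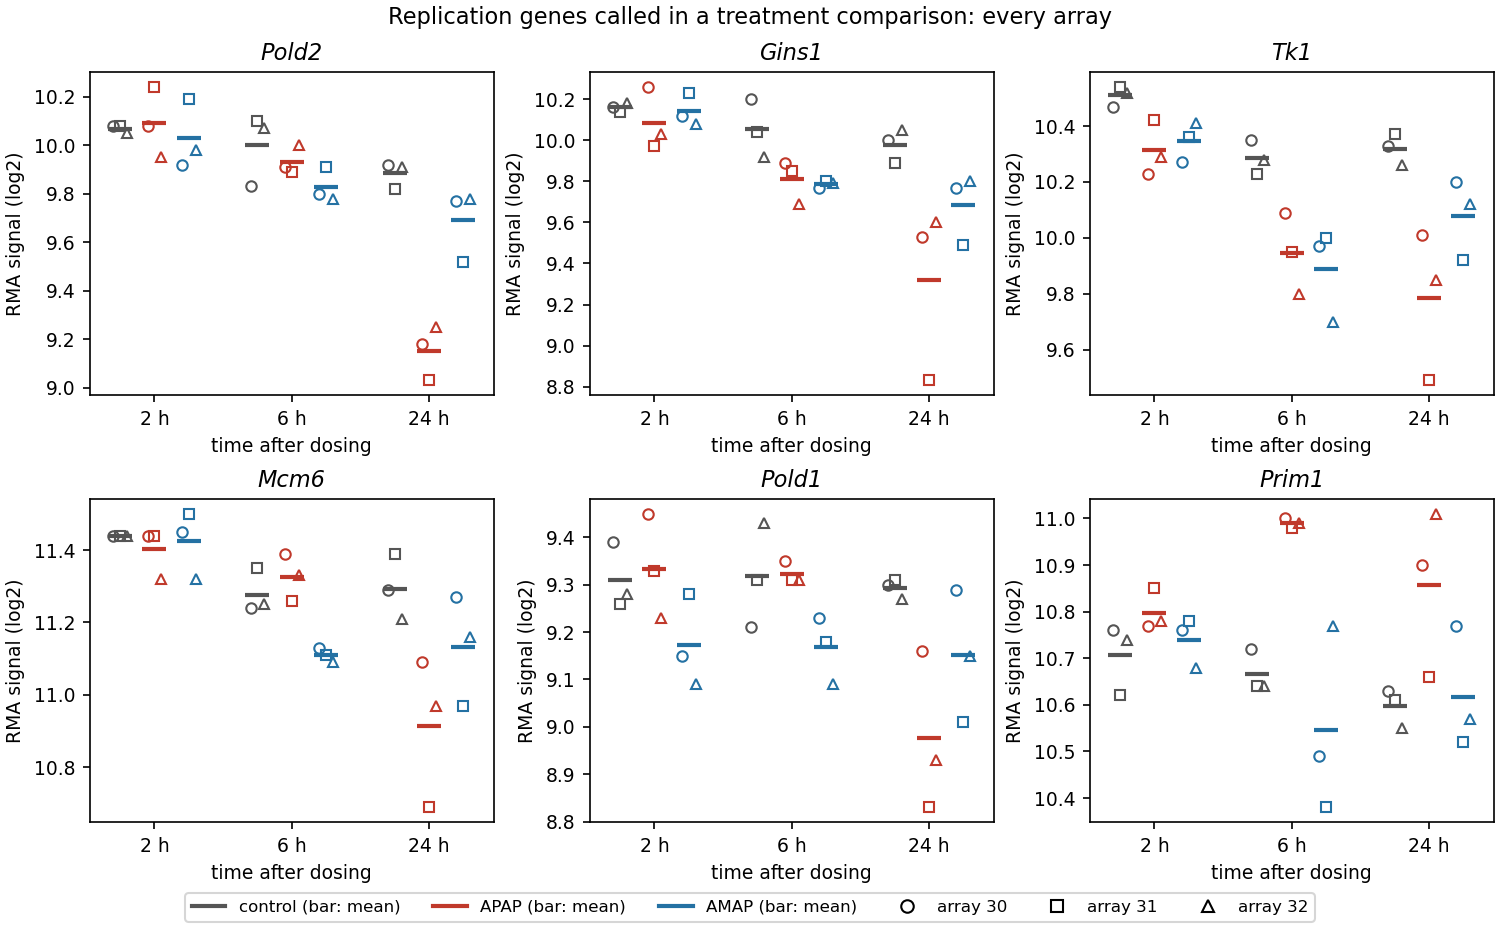
RMA signal on the log2 scale of every array for the 6 replication genes called in a treatment comparison, by time after dosing, with bars at the means of 3 arrays and symbols for the array number. For Pold2 at 24 h the APAP arrays lie between 9.03 and 9.25, below all other arrays of the series. For Prim1 at 6 h the APAP arrays lie together near 10.99, above control and AMAP.

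Promoters are shown for the genes called at 24 h of APAP, of which Pold2 and Gins1 were called without number 31. RefSeq's promoter table (build GRCm38.p6) held 38 of the 45 genes, among them 4 of the 5 that fell, and the stretch printed is the 250 bases before the annotated start, 5′ to 3′ on the gene's strand. Pold2 (chr11:5878257-5878506), Tk1 (chr11:117826015-117826264), Mcm6 (chr1:128359706-128359955) and Pold1 (chr7:44548816-44549065) all lie on the minus strand. Capitals mark a match, on either strand, to the E2F motifs TTTCGCGC and TTTGGCGC or to CCAAT, the core of sites bound by NF-Y. The first of 2 entries is shown for Pold2.
Pold2: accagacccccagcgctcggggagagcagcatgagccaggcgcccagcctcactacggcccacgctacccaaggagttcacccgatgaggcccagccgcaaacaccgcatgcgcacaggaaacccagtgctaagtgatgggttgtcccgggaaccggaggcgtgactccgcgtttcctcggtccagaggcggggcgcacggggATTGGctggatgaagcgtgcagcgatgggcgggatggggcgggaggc
Tk1: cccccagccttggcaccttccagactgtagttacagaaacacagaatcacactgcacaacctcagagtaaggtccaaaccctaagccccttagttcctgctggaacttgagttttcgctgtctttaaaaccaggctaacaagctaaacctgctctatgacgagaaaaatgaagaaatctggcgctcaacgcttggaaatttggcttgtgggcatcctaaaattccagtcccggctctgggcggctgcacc
Mcm6: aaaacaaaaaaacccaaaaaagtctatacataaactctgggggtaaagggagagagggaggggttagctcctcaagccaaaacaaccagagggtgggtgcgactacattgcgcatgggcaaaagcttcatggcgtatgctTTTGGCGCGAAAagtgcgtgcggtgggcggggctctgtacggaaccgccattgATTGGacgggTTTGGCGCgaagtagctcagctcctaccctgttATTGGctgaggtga
Pold1: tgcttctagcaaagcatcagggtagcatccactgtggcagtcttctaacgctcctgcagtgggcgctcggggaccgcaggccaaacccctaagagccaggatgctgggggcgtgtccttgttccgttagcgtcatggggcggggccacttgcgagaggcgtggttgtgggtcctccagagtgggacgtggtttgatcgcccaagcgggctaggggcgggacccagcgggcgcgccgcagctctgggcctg

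Among these 4 stretches, E2F motifs stood in that of Mcm6 alone. The Mcm6 stretch held TTTGGCGC from -110 and from -47 relative to the start, the first overlapped by a TTTCGCGC on the other strand from -106. CCAAT stood on the reverse strand of Mcm6 from -57 and -14 and of Pold2 from -47. In the 300 bases searched, which run 50 bases past the start, either E2F motif was found in 10 of the 38 promoters (26.3%), those of Orc1, Cdt1, Mcm3, Mcm5, Mcm6, Mcm7, Pola1, Pole2, Rfc3 and Lig1, against 0.929% of the 27025 genes in the table. TTTCGCGC alone was in 6 of the 38 (15.8%, against 0.374% of all) and TTTGGCGC alone in 6 (15.8%, against 0.585%). CCAAT was in 23 of the 38 (60.5%, against 41.1%). A match describes these letters, not a bound site.

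Beside the called genes, groups at 24 h of APAP were separated without overlap for 13 of the 45, 12 of them lower, where 13.7% of all genes were lower without overlap (27% in either direction). By role, licensing had the lowest median (-0.19 over 8 genes, 1 called; without number 31, -0.05 and 0 called), and the origin recognition complex lay around 0 (median 0.00 over 6 genes, 0 called). All 6 genes of the clamp and its loader were below control, between -0.26 and -0.02, with 0 called, but without number 31 they lay on both sides of it, 4 below and 2 above (-0.13 to 0.03). The 9 polymerase and primase genes spanned the whole range: Pold2 was at its low end, and at the high end stood Prim1, the catalytic subunit of primase, at 0.26 ± 0.09 (limma adjusted p = 0.070). Prim1 was called as higher with array weights (adjusted p = 0.011), quantile normalization (0.017) or dim genes left out (0.049), and without number 31 it was at 0.36 (adjusted p = 0.075). Pole2, a polymerase epsilon subunit, read 8.12, 8.25 and 8.06 in the controls and 7.97, 7.48 and 7.99 under APAP. The difference of -0.33 ± 0.11 missed the threshold (limma adjusted p = 0.054) and was -0.11 without number 31. Pole2 was called as lower with array weights (limma adjusted p = 0.037), median centring (0.032), dim genes left out (0.037), a trend in the variance prior (0.046) or the number as a block (0.048 fixed, 0.046 random). It was also called without number 32 (0.036), the APAP array 30 (0.034) or the APAP array 32 (0.022), and in no other alternative.

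The lower median at 24 h rested on array number 31. Compared within a number, the median over the 45 genes was -0.03 for number 30, -0.33 for 31 and 0.00 for 32. By the check of pairing described below, the numbers did not pair the arrays in this comparison (r = 0.08, -0.08 and 0.17). Each value therefore sets 1 APAP array against 1 control array matched by number only. Without number 31, the median was -0.01 and 2 genes stayed called, Pold2 and Gins1. Without the APAP array 31 alone, 4 genes were called, with Pold2, Gins1 and Tk1 lower and Prim1 higher. The 9 hepatocyte markers differed from control by medians of -0.07, 0.73 and 0.04 within 30, 31 and 32, and the 19 mitosis genes by -0.17, -0.73 and -0.17, so the difference was largest in number 31 for both lists. None of the hepatocyte markers was called at 24 h of APAP. Their part in the replication result was not tested.

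**Figure D3:**
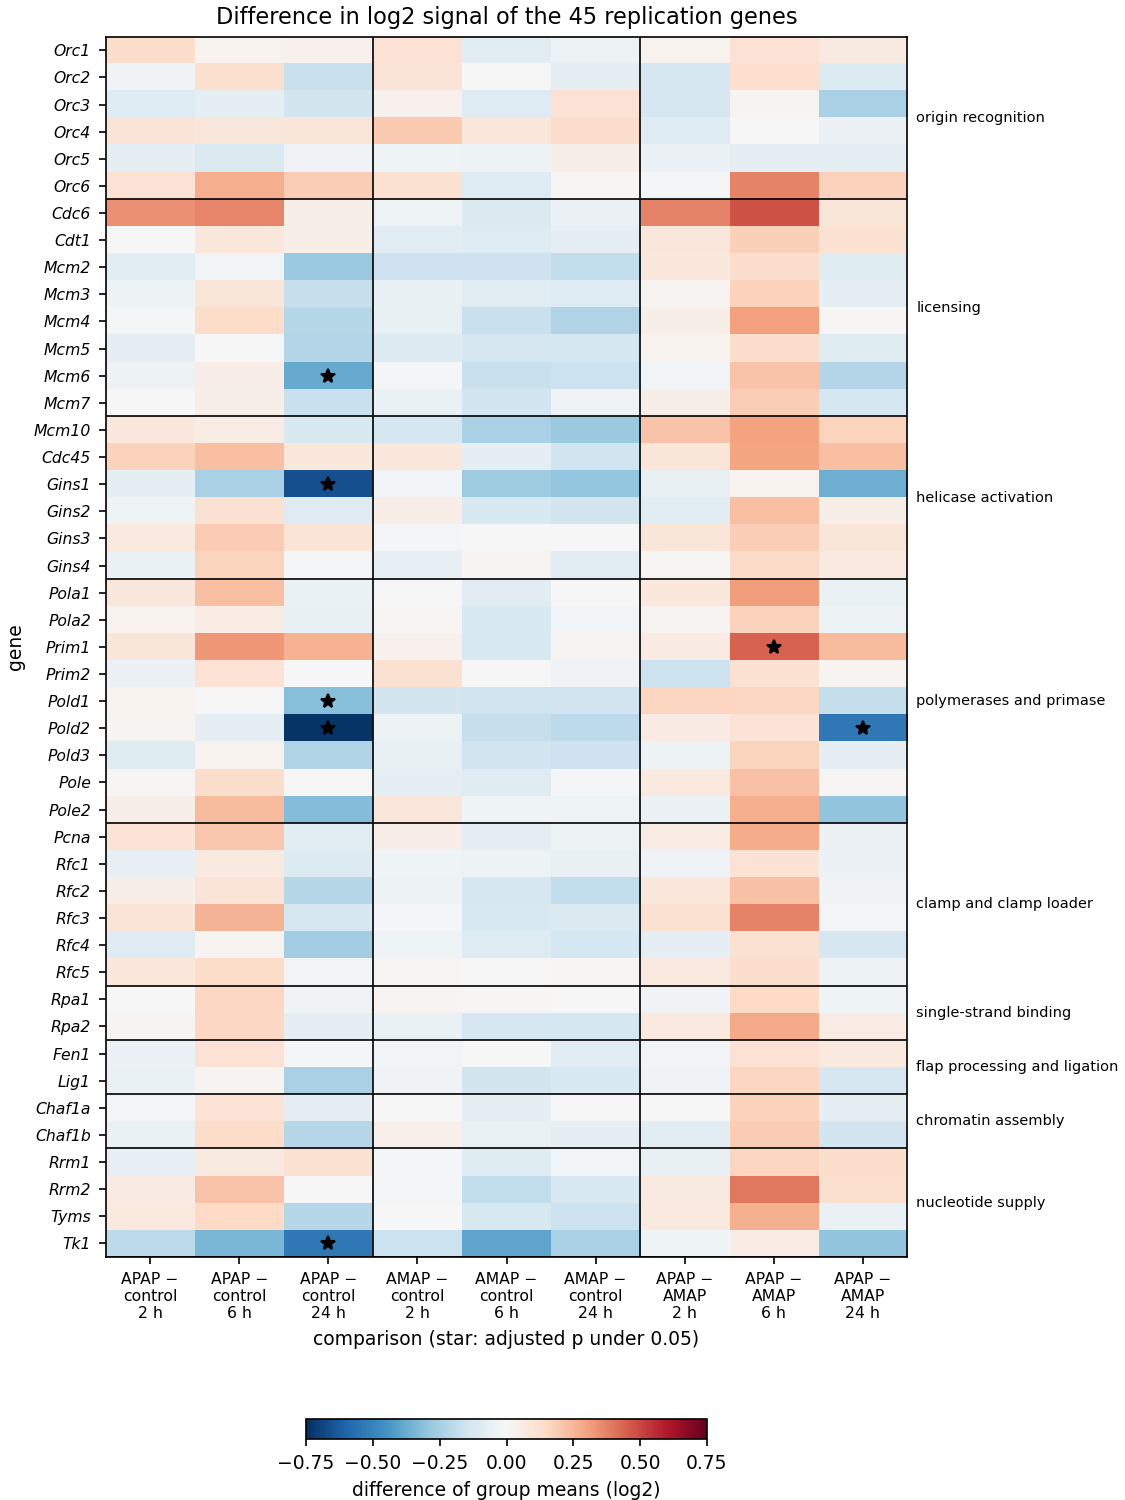
Differences of group means on the log2 scale for the 45 replication genes (rows, by role) in the 9 comparisons between treatments (columns), with stars where limma's adjusted p was under 0.05. Stars stand at 5 genes for APAP against control at 24 h, at Prim1 for APAP against AMAP at 6 h and at Pold2 for APAP against AMAP at 24 h. The APAP against AMAP column at 6 h is above 0 for 43 of 45 genes.

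Genes that work beside the 45 were counted from separate lists. Of 38 other replication factors, 1 rose and 4 fell at 24 h of APAP (median -0.02). Uhrf1, which keeps DNA methylation through replication, fell by 0.58 ± 0.11 (limma adjusted p = 0.0016), as did Dbf4 (-0.37 ± 0.10, adjusted p = 0.019), the activator of the Cdc7 kinase that fires origins, and the Mcm-binding protein Mcmbp (-0.23 ± 0.07, adjusted p = 0.027). Slbp, which binds the stem-loop of replication-dependent histone mRNAs, rose by 0.28 ± 0.07 (adjusted p = 0.012). Of 24 G1/S cyclins and E2F factors, 1 rose and 3 fell (median -0.07): Rb1, which restrains E2F, rose by 0.54 ± 0.12, and Cdk4 (-0.26 ± 0.06), cyclin A2 (Ccna2, -0.49 ± 0.14) and the repressor E2f8 (-0.35 ± 0.11) fell. Of 16 checkpoint and fork repair genes 3 fell and 0 rose (median -0.01), namely the kinase Wee1 (-0.49 ± 0.11), the nuclease Exo1 (-0.42 ± 0.10) and the checkpoint clamp subunit Hus1 (-0.32 ± 0.08). Of 19 mitosis genes 7 fell and 0 rose (median -0.35), with the spindle checkpoint kinase Bub1b at -1.04 ± 0.18.

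These lists too had fewer calls without number 31, when limma called 226 genes as higher and 282 as lower among all 19938. Of the 38 other replication factors 1 rose and 0 fell (median 0.04), the riser again Slbp (0.37, adjusted p = 0.043), with Uhrf1 at -0.50 (adjusted p = 0.072), Dbf4 at -0.23 and Mcmbp at -0.12. None of the 24 G1/S genes was called (median 0.03), with Rb1 at 0.58 (adjusted p = 0.076), Cdk4 at -0.20, Ccna2 at -0.25 and E2f8 at -0.20. Of the 16 checkpoint and fork repair genes 1 fell, Wee1 (-0.50, adjusted p = 0.035), with a median of 0.04 over the list, Exo1 at -0.33 and Hus1 at -0.25. Of the 19 mitosis genes 1 fell, Bub1b (-0.80, adjusted p = 0.049), with 17 of 19 below control and a median of -0.13.

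The second time point showed mostly higher values. At 6 h of APAP none of the 45 genes was called by limma (2.5% of all genes were). Limma's unadjusted p was under 0.05 for 10 of the 45, a count whose share over all genes is not given here. Above control were 39 of 45, with a median of 0.10 beside 0.00 over all genes. The groups did not overlap for 14 genes, 12 higher and 2 lower, where 7.71% and 8.58% of all genes were higher and lower in this way (16.3% in either direction). The 3 genes with the smallest p were Prim1, Tk1 and Cdc6.

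Prim1 read 10.72, 10.64 and 10.64 in the controls and 11.00, 10.98 and 10.99 under APAP. The APAP arrays agreed closely and lay above every control. The difference of 0.32 ± 0.09 just missed the threshold (limma adjusted p = 0.053). With the array number as a block, which pairs the arrays in this comparison, Prim1 was called. Tk1 went the other way, with 10.35, 10.23 and 10.28 in the controls and 10.09, 9.95 and 9.80 under APAP (-0.34 ± 0.11, limma adjusted p = 0.097). Cdc6, the loader of the Mcm helicase, read 9.11, 9.45 and 9.52 in the controls and 9.63, 9.56 and 9.99 under APAP. The lowest APAP array stood just above the highest control, and the difference was 0.37 ± 0.13 (limma adjusted p = 0.15).

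Every one of the 6 clamp and clamp loader genes was above control at 6 h, from 0.02 to 0.25 (median 0.12), as were 8 of 9 polymerase and primase genes (median 0.11), 7 of 8 licensing genes (median 0.06) and 5 of 6 helicase activation genes (median 0.14), with 0 called in each role. The exception in helicase activation was Gins1 at -0.24. Within array numbers 30, 31 and 32 the median over the 45 genes was 0.17, -0.02 and 0.13, so number 31 did not show the higher level.

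The other lists split at 6 h. Of the 24 G1/S genes 4 rose and 0 fell (median 0.08): the activator E2f1 (0.43 ± 0.08, limma adjusted p = 0.0028), cyclin E1 (Ccne1, 0.59 ± 0.12, adjusted p = 0.0063), cyclin D2 (Ccnd2, 0.64 ± 0.15, adjusted p = 0.015) and cyclin E2 (Ccne2, 0.63 ± 0.16, adjusted p = 0.028). Cyclin E drives entry into S phase. Of the 38 other replication factors 4 rose and 0 fell (median 0.09), Slbp (0.38 ± 0.07), the polymerase epsilon subunit Pole4 (0.37 ± 0.08), the fork factor Donson (0.32 ± 0.07) and the nuclease Dna2 (0.28 ± 0.07). Of the 16 checkpoint and fork repair genes 0 were called (median 0.01). Of the 19 mitosis genes 13 fell and 0 rose (median -0.60), led by Cenpf (-1.18 ± 0.17), a kinetochore protein, and Bub1b (-1.25 ± 0.18).

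At 2 h of APAP, limma called 0 of the 45 genes (0.682% of all genes; 1 of the 45 had an unadjusted p under 0.05), and the median was 0.00 beside 0.01 over all genes. The gene with the smallest p was Cdc6. It read 9.42, 9.44 and 9.45 in the controls and 9.79, 9.79 and 9.76 under APAP, with very tight arrays in both groups and no overlap, a difference of 0.34 ± 0.13 (limma adjusted p = 0.31). The standard error rests on the spread of Cdc6 in all 9 groups, and the SD of 3 arrays was 0.02 and 0.01 here but reached 0.26 elsewhere. Tk1 read 10.47, 10.54 and 10.52 in the controls and 10.23, 10.42 and 10.29 under APAP, all lower (-0.20 ± 0.11, limma adjusted p = 0.61). Cdc45, the helicase activator, overlapped between groups (0.17 ± 0.10, limma adjusted p = 0.65). In the other lists Slbp rose by 0.37 ± 0.07 (limma adjusted p = 0.0075), Wee1 fell by 0.51 ± 0.11 (adjusted p = 0.016), and the mitosis genes Cenpe (-0.63 ± 0.13) and Ect2 (-0.43 ± 0.10) fell. The 2 mitosis calls were among 19 genes with a median of -0.42, and no G1/S gene of 24 was called (median -0.05).

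Whether the APAP effect changed with time was tested as a difference of differences. For Pold2 the effect at 24 h was lower than that at 2 h by -0.76 ± 0.13 (limma adjusted p = 0.0050), where 0.356% of all genes were called and 0.186% as lower, and no other of the 45 was called. Against the effect at 6 h it was lower by -0.66 ± 0.13 (limma adjusted p = 0.088), and 0 of the 45 were called there (0.01% of all genes). From 2 h to 6 h limma called 0 of the 45 and 0% of all genes. The contrast of 24 h with 2 h lost its call without all arrays of number 30 (-0.76, adjusted p = 0.21), 31 (-0.66, adjusted p = 0.13) or 32 (-0.85, adjusted p = 0.060).

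A further question was how AMAP, at the same dose and times, compared. Against control, AMAP called 0 of the 45 genes at 2 h (0.181% of all genes), 6 h (0.456%) and 24 h (0.727%). At these times 0, 2 and 5 of the 45 had an unadjusted p under 0.05, counts whose shares over all genes are not given here. The median difference was -0.01 at 2 h, -0.10 at 6 h with 39 of 45 below control, and -0.07 at 24 h with 36 below. At 6 h, the 8 licensing genes, the 9 polymerase and primase genes and the 4 nucleotide supply genes were all below control, between -0.40 and 0.00. Groups did not overlap for 9 genes at 6 h, all lower (5.87% of all genes), and for 8 at 24 h, all lower (10.7%). The largest difference was that of Tk1 at 6 h, with 9.97, 10.00 and 9.70 under AMAP against 10.35, 10.23 and 10.28 (-0.40 ± 0.11, limma adjusted p = 0.10).

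At 24 h the AMAP median rested on the same array number. Within numbers 30, 31 and 32 it was 0.03, -0.27 and 0.01, and without number 31 it was 0.04, on the other side of 0. Here too the numbers did not pair the arrays by the check of pairing (r = 0.09, 0.05 and 0.31). The hepatocyte markers had medians of 0.03, 0.55 and 0.16 in the same arrays, and their part in the difference was not tested. At 6 h the 3 numbers gave -0.09, -0.14 and -0.11. Of the 24 G1/S genes, cyclin D1 (Ccnd1), which couples growth signals to Cdk4, fell at 6 h (-0.46 ± 0.10, limma adjusted p = 0.029) and at 24 h (-0.53 ± 0.10, adjusted p = 0.0075), the latter not called without number 31 (-0.47, adjusted p = 0.36). Slbp rose at 2 h of AMAP (0.35 ± 0.07, adjusted p = 0.031), and 0 of 19 mitosis genes were called at any of the 3 times.

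APAP and AMAP were then compared directly, 1 pair of compounds at the same dose and 3 times. At 6 h the machinery stood higher under APAP than under AMAP for 43 of 45 genes, with a median difference of 0.17 beside -0.01 over all genes. The groups did not overlap for 25 of the 45, all higher under APAP, where 5.09% of all genes were higher and 10.4% were separated in either direction. Limma called 1 of the 45, Prim1, as higher (0.707% of all genes called, 0.476% as higher). Of the 95% intervals, 21 lay above 0 and none below. The intervals are not adjusted for the number of genes, and their share over all genes is not given here. Within numbers 30, 31 and 32 the median was 0.24, 0.10 and 0.22, and 31 genes were higher in all 3 numbers against 14.8% of all genes.

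Prim1 read 11.00, 10.98 and 10.99 under APAP and 10.49, 10.38 and 10.77 under AMAP at 6 h. The AMAP arrays were spread widely, and the highest of them stayed below APAP. The difference was 0.44 ± 0.09 (1.36-fold, limma adjusted p = 0.013, or 0.0071 with p adjusted over the 3 times together). Its call was lost without number 30 (0.41, adjusted p = 0.64) or 31 (0.37, adjusted p = 0.26), without the AMAP array 30 (0.42, adjusted p = 0.10) or 31 (0.36, adjusted p = 0.12) or the APAP array 30 (0.44, adjusted p = 0.052) or 32 (0.44, adjusted p = 0.056), and with the 6 arrays fitted alone (adjusted p = 0.25).

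Rfc3, a subunit of the clamp loader, read 9.98, 10.03 and 10.11 under APAP and 9.55, 9.67 and 9.78 under AMAP. The difference of 0.37 ± 0.09 had a limma adjusted p of 0.054 at 6 h and 0.033 over the 3 times together, and with the array number as a block, which pairs the arrays here, it was called. Cdc6 differed by 0.48 ± 0.13 (limma adjusted p = 0.084), Mcm4 by 0.31 ± 0.08 (adjusted p = 0.10), and the ribonucleotide reductase subunit Rrm2, which makes deoxynucleotides, by 0.40 ± 0.12 (adjusted p = 0.17). Rrm2 read 11.21, 11.14 and 11.31 under APAP against 10.75, 10.79 and 10.93 under AMAP, so the groups were apart for it as well. The lowest values in this comparison belonged to the origin recognition complex, whose median was 0.06, with Orc5 at -0.07 and an interval of -0.30 to 0.16, while Orc6 was at 0.37.

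**Figure D4:**
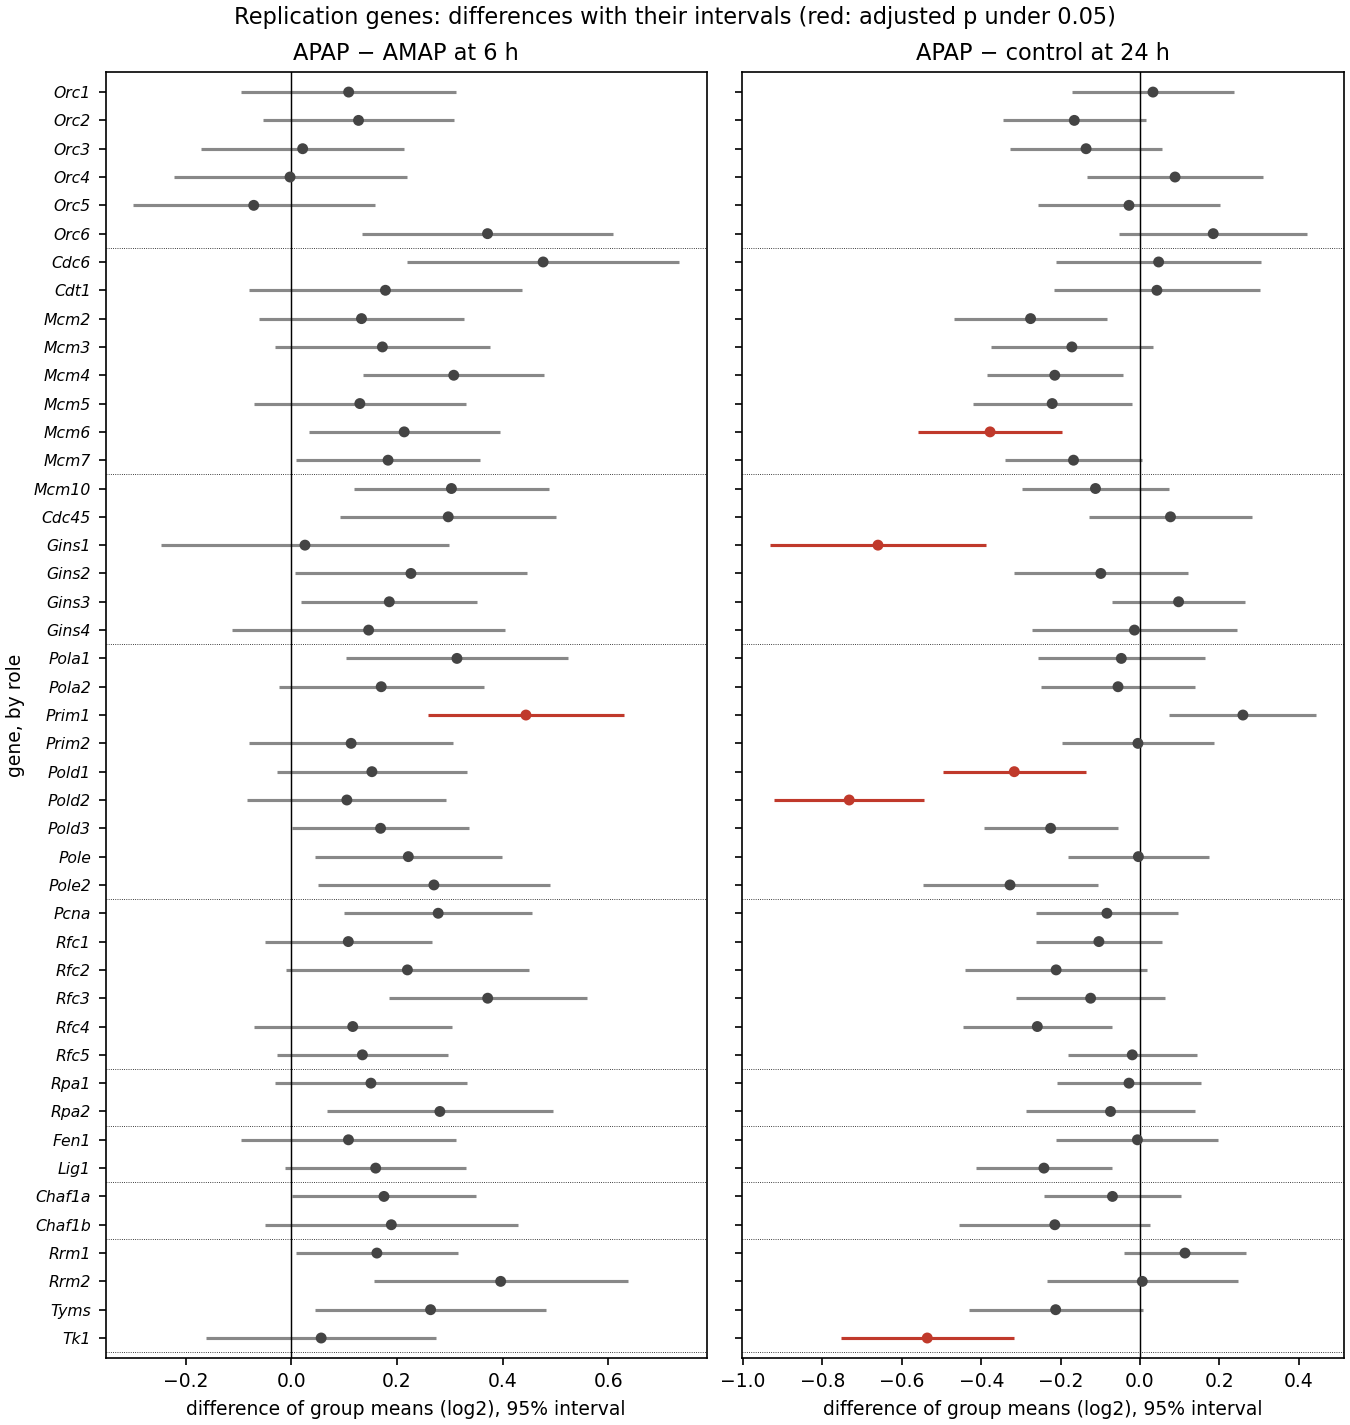
Difference of group means on the log2 scale (points) with 95% intervals of the limma model (lines) for the 45 replication genes by role, for APAP minus AMAP at 6 h and APAP minus control at 24 h, in red where the adjusted p was under 0.05. At 6 h, 21 intervals lie above 0 and none below. At 24 h Pold2 and Gins1 lie farthest below 0.

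At 24 h limma called 1 of the 45 between the compounds, Pold2, as lower under APAP (4.65% of all genes called, 2.78% as lower). AMAP arrays read 9.77, 9.52 and 9.78 against 9.18, 9.03 and 9.25 under APAP. The AMAP arrays were all higher, and array 31 was the lowest within each group. The difference was -0.54 ± 0.09 (limma adjusted p = 0.00055), and it was lost without number 30 (-0.52, adjusted p = 0.067) and kept without number 31 (-0.56, adjusted p = 0.0048). The other 4 genes that fell under APAP were lower than under AMAP in each array number, but their adjusted p missed the threshold. Of the 45, 14 were lower in each number and 9 higher, counts whose shares over all genes are not given here. Both comparisons use the same APAP arrays, so these differences are not independent of the calls against control. The 95% intervals of APAP minus AMAP lay below 0, from -0.64 to -0.10, for Gins1 (-0.37, limma adjusted p = 0.12), from -0.51 to -0.08 for Tk1 (-0.30, adjusted p = 0.12) and from -0.40 to -0.04 for Mcm6 (-0.22, adjusted p = 0.17), and ran from -0.36 to 0.00 for Pold1 (-0.18, adjusted p = 0.28). Tk1 was called with arrays centred on their medians (adjusted p = 0.046) or without the APAP array 30 (0.038), and Gins1 without the APAP array 32 (0.038). Without number 31 the differences were -0.22 for Gins1, -0.23 for Tk1, -0.19 for Mcm6 and -0.18 for Pold1, none called. Of the 45 intervals, which are not adjusted for the number of genes, 6 lay below 0 and 2 above, and the shares over all genes are not given here. The median over the 45 was -0.04, and it was -0.00 without number 31 and 0.05 without the APAP array 31. At 2 h 0 of the 45 were called (0.261% of all genes; 2 at an unadjusted p under 0.05), and the intervals of all 45 lay between -0.35 and 0.63.

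The cell cycle lists were counted between the compounds as well. At 6 h, 6 of 24 G1/S genes were higher under APAP and 0 lower, among them Ccne1 (0.69 ± 0.12, limma adjusted p = 0.0035), E2f1 (0.37 ± 0.08, adjusted p = 0.023), Cdk2 (0.36 ± 0.08), the kinase that cyclin E activates, and E2f8 (0.47 ± 0.11). Of the other replication factors 1 of 38 was higher, Dna2 (0.37 ± 0.07, adjusted p = 0.0054). Of 19 mitosis genes 6 were lower and 0 higher, with Cenpf at -1.24 ± 0.17. At 24 h, Ccnd1 was higher (0.36 ± 0.10) and Cdk4 lower (-0.21 ± 0.06) under APAP, and Uhrf1 (-0.41 ± 0.11), Wee1 (-0.43 ± 0.11), Hus1 (-0.28 ± 0.08), Bub1b (-0.77 ± 0.18) and Cenpf (-0.71 ± 0.17) were lower. None of these 7 was called without number 31, with differences of 0.37 for Ccnd1, -0.20 for Cdk4, -0.40 for Uhrf1 and Wee1, -0.29 for Hus1, -0.65 for Bub1b and -0.50 for Cenpf.

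The control cultures moved over time as well. From 2 h to 24 h, 42 of 45 genes had a lower mean (median -0.17, beside 0.01 over all genes). The groups did not overlap for 30, all lower (13.9% of all genes), and 35 were lower in each array number (21.7% of all genes). By the check of pairing described below, the numbers did not pair the arrays of these 2 times (r = 0.17, 0.08 and -0.08). Limma called 0 of the 45 at this step (1.14% of all genes), and 15 of the 45 passed 0.05 before adjustment. The share of all genes that passed before adjustment is not given here. Without number 31 the median was -0.18, with 44 of 45 lower and 0 called. The 8 licensing genes were all lower (median -0.22), as were the 9 polymerase and primase genes (-0.11), the 6 clamp and clamp loader genes (-0.13) and the 4 nucleotide supply genes (-0.18).

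The 4 genes with the smallest p were Orc2 (-0.34 ± 0.09, limma adjusted p = 0.053), Mcm5 (-0.31 ± 0.10, adjusted p = 0.12), Chaf1b (-0.36 ± 0.12, adjusted p = 0.13) and Rfc1 (-0.24 ± 0.08, adjusted p = 0.13). Orc2 read 10.14, 10.12 and 10.19 at 2 h and 9.72, 9.92 and 9.79 at 24 h. No 24 h array reached the 2 h level.

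The larger part of that median lay between 2 h and 6 h, where 39 of 45 were lower (median -0.13), the groups did not overlap for 20, all lower (6.55% of all genes), and limma called 1, Chaf1b, as lower (0.707% of all genes, 0.266% as lower). Chaf1b is a subunit of chromatin assembly factor 1, which places histones behind the fork. It read 9.71, 9.97 and 9.94 at 2 h and 9.31, 9.42 and 9.42 at 6 h and fell by 0.49 ± 0.12 (limma adjusted p = 0.044), and the call was kept in 1 of 9 ways of leaving arrays out, that without the 2 h control array 30, with adjusted p up to 0.29 in the others, and it was lost with the 6 arrays fitted alone (adjusted p = 0.067). From 6 h to 24 h limma called 0 (0.015% of all genes; 1 of the 45 at an unadjusted p under 0.05), and the median was -0.04.

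Over all 9 groups the lowest mean of a gene was most often at 24 h of APAP, for 22 of the 45. The highest was most often in the 2 h control, for 16. The APAP means at 24 h include array 31, the lowest of its group for 41 of the 45 genes. These counts are not given without number 31 or over all genes. The means of a gene spanned from 0.15 (Rfc5, a clamp loader subunit) to 0.94 (Pold2) on the log2 scale, with a median span of 0.37. After Pold2 the widest were Gins1 (0.84) and Tk1 (0.73). The mean of Tk1 was below its control under both compounds at all 3 times, as were the means of Gins1 and Mcm2. For Tk1, APAP minus control was -0.20, -0.34 and -0.54 and AMAP minus control -0.16, -0.40 and -0.24 at 2, 6 and 24 h, comparisons that share their control arrays. The brightest probe set was that of Pcna, at 12.21 over the 27 arrays. The 2 probe sets named Pcna gave the same differences within 0.01, and whether each measures Pcna alone was not tested.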

How the data were processed

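RNA from 27 samples was hybridised to Affymetrix Mouse Gene 1.0 ST arrays. Per the submitters' processing notes, the authors used RMA in Affymetrix Expression Console 1.1, and the deposited table holds 1 log2 value per probe set and array, with no pooling. Of 35557 probe sets, 21789 carry a single symbol, which gave 19938 genes. The number of arrays limits the precision.

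The main model, limma 3.58.1 run in R 4.3.3, had 9 group means over all arrays (18 residual degrees of freedom), with 15 comparisons and calls at a two-sided Benjamini-Hochberg adjusted p under 0.05 over all genes. Intervals are 95%. The fit was tested on simulated data. The members, roles and lists were chosen with earlier results of these data known. Genes given in full were those called between treatments and, for APAP against control at each time, the 3 with the smallest p where fewer were called. Of the other lists, up to 4 called genes with the smallest p are named.

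The array numbers were taken to pair arrays where deviations from the group means correlated over 0.1 for each number, which held in 5 of 9 treatment comparisons: APAP against control at 2 and 6 h, AMAP against control at 6 h, and APAP against AMAP at 6 and 24 h. The pairing comes from this check, since the labels do not say what the numbers mark. Alternatives were scaling, leaving out arrays or dim genes, the number as a block, array weights, a trend in the variance prior, the mean of probe sets, and fitting only the groups compared.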

Additional observations from a re-analysis of the deposited data

Results flagged for a closer look

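Pold2 was flagged because the effect of APAP differed between times in the test of that difference, by -0.76 on the log2 scale between 24 h and 2 h (limma adjusted p = 0.0050). APAP minus control was 0.02 at 2 h, -0.07 at 6 h and -0.73 at 24 h. The difference lost its call with the arrays of any 1 number left out.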

How the results depend on the processing

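Of the 9 calls of single genes, none changed direction in any alternative. With the replicate block (the array number as a fixed or a random block), APAP against control called 1 gene at 6 h and 6 at 24 h, APAP against AMAP 2 at 6 h, and control 24 h against 2 h 1 gene (Orc2). The block changed no other count by over 1.5 times. For APAP against control at 6 h, the intensity trend, array weights, quantile normalization and leaving out dim genes each called 1 gene (Prim1). At 24 h the count of 5 was 2 with the 6 arrays fitted alone, 10 with array weights (9 lower and Prim1 higher), 10 with arrays centred on their medians and 9 without dim genes (8 lower and Prim1 higher). Quantile normalization called 6, with 5 lower and Prim1 higher. For APAP against AMAP at 6 h the count of 1 was 0 with the 6 arrays alone, 8 with array weights, and 2 with the trend, quantile normalization, without dim genes or with p adjusted over the 3 times together, the last chosen after seeing the data. At 24 h it was 2 with quantile normalization or median centring. The control 6 h against 2 h count of 1 was 0 with the 6 arrays alone. Control 24 h against 2 h called 5 with array weights and 1 with the trend, quantile normalization, median centring or without dim genes. The APAP effect at 24 h against 6 h called 1 (Pold2) with the trend, array weights, quantile normalization or median centring. The share of all genes called under each alternative is not set beside these counts, so a count that moved is not a result about the 45 genes. The cause of these moves was not tested. With arrays left out, the counts ran from 2 to 7 for APAP against control at 24 h, 0 to 3 for APAP against AMAP at 6 h and at 24 h, 0 to 1 for control 6 h against 2 h, and 0 to 1 for the APAP effect at 24 h against 2 h. The median standard error of a difference was 0.09 over the 45 genes at 24 h, and signal over background was not analysed here.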
